A study of Mus musculus with 27 samples.

Results

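Organoids grown from gastric Mist1+ cells of Gpx4 knockout mice were compared at passage 5 with Mist1- organoids at the same passage, to see how far the 2 cultures resembled each other and where they differed. The comparison rests on 6 libraries, 3 of each culture, chosen by their labels from the 27 samples of the series. All are RNA-seq libraries of mouse stomach epithelium kept as organoids in Matrigel in a proliferative medium. The Mist1- group carries the genotype label WT and the other the label Gpx4 KO. The line is Mist1CreERT2;RFPLSL, a Cre recombinase under Mist1 (Bhlha15) control with a red reporter behind a stop cassette, in adult mice. The knockout mice were Gpx4F/F;Mist1Cre/ERT2;RFPLSL, which adds floxed Gpx4 alleles. The growth protocol describes sorting of RFP+ cells only and does not state how Mist1- cells were obtained. Mist1+ organoids of genotype WT at passage 5, the wild-type counterpart of the knockout, supplied 3 further libraries and are given beside the main values.

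GPX4 is the selenium-containing peroxidase that reduces lipid hydroperoxides within membranes, and its loss opens cells to ferroptosis, an iron-dependent death by lipid peroxidation. Mist1 is a transcription factor of zymogenic chief cells in the gastric corpus and also labels cells of the gland isthmus. Gastric glands hold mucous pit cells at the surface, mucous neck cells, acid-secreting parietal cells and chief cells, and injury can turn chief cells to a mucous state called SPEM. A pair of stress programmes recur below: the integrated stress response, in which ATF4 switches on genes of amino acid supply, and the hypoxia response, in which HIF factors switch on glycolysis and VEGFA.

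Because knockout genotype, sorted population and donor animals differ together between the 2 cultures, their parts in any difference cannot be told apart. Nothing in the labels ties the 3 libraries of a culture to separate wells or animals, so p-values rest on a spread between libraries that may be technical. That spread was estimated over all organoid groups and not over these 2 cultures alone. In bulk RNA, fewer cells of a type and less RNA per cell cannot be told apart.

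The knockout libraries held 16300122 to 18732693 counts and the Mist1- libraries 16917658 to 17643053. Levels below are CPM, counts divided by TMM-scaled library size, and a difference is called at an adjusted p under 0.05 (edgeR's quasi-likelihood test, Benjamini-Hochberg). Differences are log2 values, knockout minus Mist1-, with a standard error (SE). The spread was estimated over 7 organoid groups of 3 libraries. Its coefficient of variation lay between 1.89% and 3.07% within 6 of them and was 21.1% in Mist1+ organoids at passage 15, which enter this test only through that estimate. Epithelial genes were high in both cultures: the 8 epithelial markers, such as Cdh1, Krt8 and Cldn18, summed to 9538 to 9709 CPM in the knockout and 10155 to 10265 CPM in Mist1- libraries. Fibroblast markers summed to at most 0.181 CPM and 0.355 CPM. Transcripts of Y-linked genes were present in all 6 libraries and Xist had 0 to 4 counts. Of the 4 Y-linked genes tested, Eif2s3y (93.3 to 101 CPM against 72.4 to 82.2 CPM) and Kdm5d were called higher in the knockout.

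Gpx4 itself was close in level in the 2 cultures. It stood at 101, 98.9 and 98.2 CPM in the knockout libraries and at 112, 116 and 118 CPM in the Mist1- libraries. The groups did not overlap, yet the difference of -0.21 (SE 0.135, 95% interval -0.49 to 0.07) was not called (edgeR adjusted p = 0.315). When Mist1+ passage 15 was left out of the fit it was called, at an adjusted p of 6.05e-07. Mist1+ organoids had 124 to 134 CPM, and against them Gpx4 was called lower in the knockout (-0.38, edgeR adjusted p = 0.0362). Counts over the whole gene do not show whether single exons are deleted, so these values do not test the knockout label. Bhlha15, which encodes MIST1, was at 10.9, 9.85 and 9.84 CPM in the knockout and 12.8, 8.61 and 9.76 CPM in the Mist1- libraries. These overlapped, with a difference of -0.03 (95% interval -0.31 to 0.29) and an edgeR adjusted p of 0.915. Mist1+ organoids had less, 5.02 to 6.21 CPM, and the difference of the knockout from them was 0.89.

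Of 15115 genes tested, 3182 differed between knockout and Mist1- organoids (21.1% of tested genes), 1539 higher in the knockout (10.2%) and 1643 lower (10.9%). Which side was larger depended on the scaling: with library totals alone 1805 were higher and 1456 lower, and limma on log2(FPKM + 1) gave 1778 and 1476. Differences of at least 2-fold were fewer, 721 genes (4.77%), of which 429 were higher (2.84%) and 292 lower (1.93%). For 8997 genes (59.5%) the 95% interval of the difference lay inside 1.5-fold in either direction. The 3 libraries of one culture did not overlap the 3 of the other for 7185 genes (47.5%). Without Mist1+ passage 15 in the fit, 5972 of 14984 genes were called (39.9%), 2928 higher (19.5%) and 3044 lower (20.3%), and 831 passed 2-fold. These shares are the background for the list counts below. The same tests between Mist1+ and Mist1- organoids called 5290 genes (35%), 18.8% higher and 16.2% lower in Mist1+ organoids. Between knockout and Mist1+ organoids 4547 passed (30.1%), with 13% of tested genes above the Mist1+ level and 17% below it. These 3 comparisons share libraries. The root mean square of the log2 difference over all tested genes was 0.54 between knockout and Mist1-, 0.59 between knockout and Mist1+, and 0.70 between Mist1+ and Mist1- organoids. By library, the 3 knockout libraries lay 0.57 to 0.58 from the Mist1- mean and 0.61 to 0.62 from the Mist1+ mean, a small gap and the same in order for each.

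A share of the difference from Mist1- organoids lay on 1 chromosome. On chromosome 17, 507 of 777 tested genes were called (65.3%), 485 of them lower in the knockout (62.4%) and 22 higher (2.83%). On the other 19 chromosomes between 15.7% and 21.9% were called. Among 539 chromosome 17 genes of at least 5 CPM, 510 (94.6%) were lower in the knockout by sign, against 46.7% of genes elsewhere. The median chromosome 17 gene was 1.40-fold higher in Mist1- organoids, and the quartiles of the log2 difference were -0.60 and -0.33. The medians of the 8 stretches of 10 Mb with at least 20 genes ran only from -0.52 to -0.42. Set against the median of all 21 libraries, chromosome 17 stood at 0.39 to 0.41 in the Mist1- libraries. It stood at -0.06 to -0.05 in the knockout and at -0.05 to -0.04 in the Mist1+ libraries of passage 5. Mist1+ libraries of passage 15 lay at 0.06 to 0.17. Among the passage 5 cultures it is thus the Mist1- culture that stood apart. Gene dosage was not measured, and its part in this was not tested. Chromosome 17 held 29.5% of all genes called lower in the knockout. Elsewhere, 2675 of 14338 genes were called (18.7%), 1517 higher (10.6%) and 1158 lower (8.08%). With chromosome 17 genes left out before scaling and testing, 2570 genes were called, 1303 higher and 1267 lower, and 657 passed 2-fold. Genes named below that lie on chromosome 17 are marked as such. The count for a list includes its members there, named or not, unless stated.

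**Figure D1:**
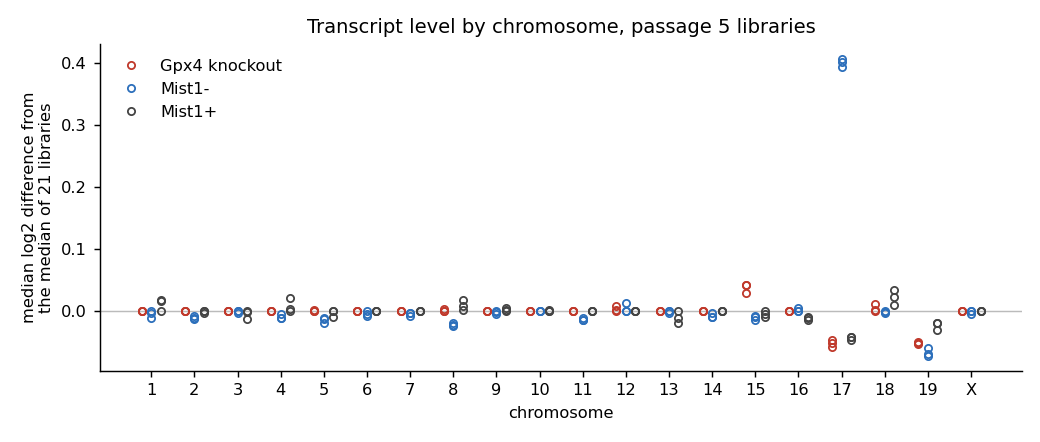
Median log2 difference of each chromosome's genes (at least 5 CPM) from the median of 21 organoid libraries, 1 circle per passage 5 library, knockout red, Mist1- blue and Mist1+ grey. On chromosome 17 the 3 Mist1- libraries sit at 0.39 to 0.41, while every other chromosome lies between -0.07 and 0.04 in all 9 libraries.

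The 12 genes furthest above Mist1- levels in the knockout were of mixed function. Olfm4, a secreted glycoprotein marking intestinal stem cells and found in gastric metaplasia, was at 145, 149 and 141 CPM in the knockout and 2.72, 2.21 and 2.25 CPM in Mist1- libraries. The difference was 5.92 (SE 0.101, edgeR adjusted p = 8.14e-20), and Mist1+ organoids had 21.4 to 25.3 CPM, so the knockout was high against both. Muc5b, a gel-forming mucin, followed the same order, with 136, 136 and 138 CPM against 11.5, 10.8 and 9.94 CPM (difference 3.67, SE 0.135, edgeR adjusted p = 2.77e-14). In Mist1+ organoids it was 12.5 to 14.2 CPM, near the Mist1- level. Smoc1, a secreted calcium-binding matrix protein that modulates BMP signals, had 22.1, 21.2 and 23.1 CPM against 0.591, 0.397 and 0.651 CPM, a difference of 5.32. B3gnt7, a glycosyltransferase, had 33, 35.6 and 30.7 CPM against 1.54, 0.963 and 1.12 CPM, a difference of 4.77. Mmp7, the matrix metalloproteinase matrilysin, had 9.14, 7.91 and 8.39 CPM against 0.355, 0.227 and 0.532 CPM, a difference of 4.49. All 3 were at most 3.95 CPM in Mist1+ organoids, below every knockout library. Slc5a5, the sodium-iodide symporter, differed by 3.76, Car8 by 3.73 and Bco2, a carotenoid-cleaving oxygenase, by 3.35, and for each the Mist1+ libraries lay between the others.

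A second set among the 12 highest was higher still in Mist1+ organoids. Gkn3, a gastrokine of mucous neck cells, was at 101, 101 and 96.9 CPM in the knockout, 9.76, 10.4 and 8.93 CPM in Mist1- libraries and 276 to 281 CPM in Mist1+ libraries. The knockout therefore lay between them, 3.36 (SE 0.0888) above Mist1- and 1.48 below Mist1+ on the log2 scale. Pex5l and Shisa2, a Wnt and FGF receptor antagonist, took the same order, with differences of 3.57 and 3.35 from Mist1- organoids. Slc22a29, an organic anion transporter of a cluster of near-identical genes, had 13.1, 12.9 and 13 CPM in the knockout and 0 counts in all 3 Mist1- and all 3 Mist1+ libraries. Against a floor of 3 counts over the Mist1- group it was at least 223-fold higher, though reads of such copies can be assigned uncertainly.

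The genes furthest below Mist1- levels were of mixed function. Nrn1, the secreted neuronal growth factor neuritin, had 0 counts in the knockout and 20.5, 24.5 and 19.2 CPM in the Mist1- libraries, at least 384-fold lower. Mist1+ organoids had at most 0.271 CPM, so high Nrn1 was a property of the Mist1- libraries alone among these 9. Lamb1, a laminin chain of the basement membrane, had 2.82, 3.46 and 4.23 CPM against 25.5, 25.2 and 25 CPM (difference -2.85), and Mist1+ organoids 2.75 to 3.8 CPM. Aox1, an aldehyde oxidase, Tppp, which binds tubulin, and Ppp1r3a, a glycogen-targeting phosphatase subunit, followed the same pattern with differences of -2.74, -2.49 and -6.12. The knockout and the Mist1+ libraries were not called different in any of these 5 genes.

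Other genes at the low end set the knockout apart from both. Rpl29, a protein of the large ribosomal subunit, was at 21.4, 22.1 and 25.9 CPM in the knockout, 324, 315 and 303 CPM in Mist1- and 263 to 278 CPM in Mist1+ libraries (difference from Mist1- -3.76, SE 0.175, edgeR adjusted p = 1.31e-12). Rpl29 has many processed copies in the genome, and this count is uncertain for that reason. The zinc finger genes Zfp987 and Zfp991, both on chromosome 4 in a family of close copies, differed by -4.47 and -3.52, and Xlr3a, on the X chromosome with near-identical neighbours, had 0 counts against 4.97 to 5.5 CPM, at least 95.3-fold lower. Fhl1, a LIM-domain protein, differed by -2.78. The rest of the 12 lowest, Aldh1l2 and Trib3, belong to the integrated stress response and are described with it. None of these 24 genes lost its call in any alternative in which it was tested.

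**Figure D2:**
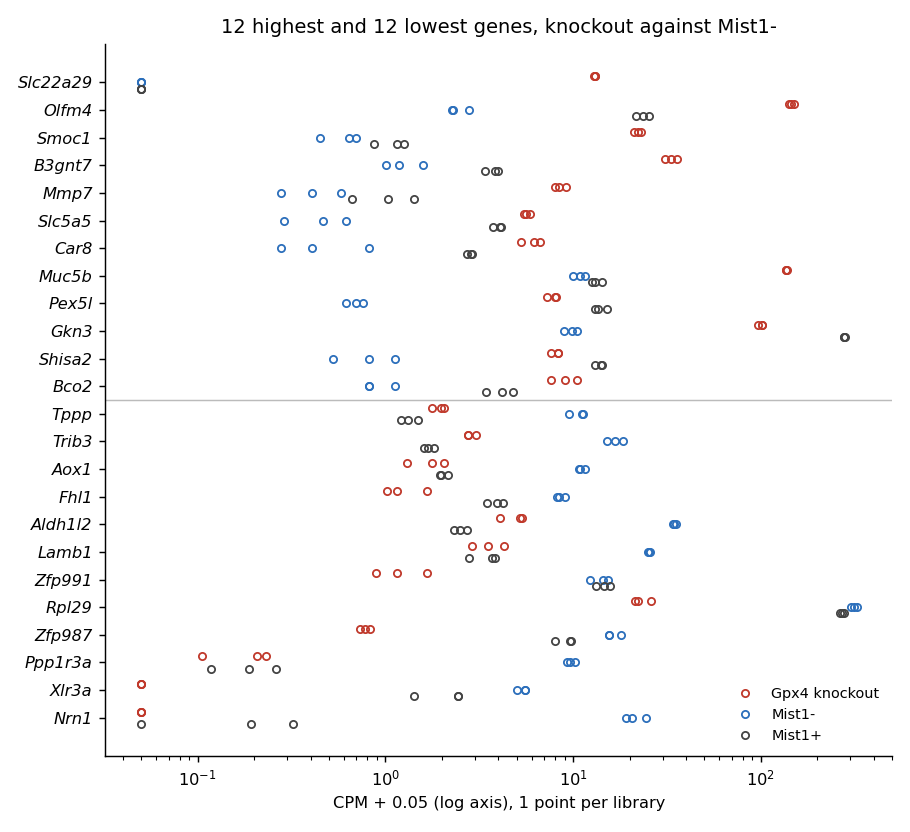
CPM plus 0.05 on a log axis for the 12 genes highest and the 12 lowest in the knockout against Mist1- organoids, 1 circle per library, knockout red, Mist1- blue and Mist1+ grey. In every row the 3 red and 3 blue circles do not overlap, while the grey ones fall between them, with either, or beyond.

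Genes of mucous pit cells were higher in the knockout than in Mist1- organoids. Of the 9 tested, 8 were called higher and 0 lower, with a median difference of 1.78, against a median of 0.00 over all genes. Muc5ac, the surface mucin, had 55.2, 56.8 and 59 CPM in the knockout and 9.82, 12.6 and 10.5 CPM in Mist1- libraries (difference 2.37, SE 0.121). Gkn1, a gastrokine of the surface mucus, had 156, 160 and 160 CPM against 30.1, 31 and 30.3 CPM, and Gkn2, its partner, 246, 240 and 255 CPM against 53.6, 52.7 and 58.8 CPM. Both sets of libraries were far apart, with differences of 2.38 and 2.16. Tff1, the pit cell trefoil peptide, lies on chromosome 17, which was high in Mist1- organoids, and was nonetheless higher in the knockout, at 807, 815 and 817 CPM against 417, 413 and 436 CPM. Psca, Ctse and the calpains Capn8 and Capn9 were the other called members, and Mucl3, also on chromosome 17, was not called (117 to 124 CPM against 129 to 132 CPM). Mist1+ organoids had the highest mean level of each of these 9 genes. Muc5ac averaged 164 CPM (SD 1.03, n = 3) and Gkn1 933 CPM (SD 24.5, n = 3) there, and the list's summed level was 5226 to 5369 CPM in Mist1+, 1564 to 1594 CPM in the knockout and 726 to 756 CPM in Mist1- libraries.

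Neck cell and SPEM genes were divided. Of 9 tested, 5 were called higher and 3 lower. Tff2, the trefoil peptide of neck cells and of SPEM, had 96.3, 97.3 and 95.7 CPM in the knockout and 481, 469 and 491 CPM in Mist1- organoids, a difference of -2.32 (SE 0.157, edgeR adjusted p = 5.24e-10). Tff2 lies on chromosome 17, whose quartiles were -0.60 and -0.33. Aqp5, a water channel of SPEM cells, was also lower, at 25.5, 25.3 and 25.8 CPM against 37.9, 35.9 and 36.3 CPM. Mist1+ organoids had less of both, 25 CPM (SD 1.99) of Tff2 and 8.26 CPM (SD 0.376) of Aqp5. Clu, the stress chaperone clusterin, was higher in the knockout, at 9460, 9523 and 9648 CPM against 5663, 5625 and 5651 CPM, as were Sox9, a progenitor transcription factor, and the chloride channel Cftr.

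Only 4 chief and 5 parietal markers were tested. Of the chief genes 2 were called higher and 0 lower, beside 10.2% and 10.9% of all genes. Of 4 chief cell genes tested, Pgc, which encodes pepsinogen C and lies on chromosome 17, was at 9.69, 10.2 and 8.09 CPM in the knockout and 1.89, 1.93 and 2.19 CPM in Mist1- libraries (difference 2.22). Xbp1, a secretory-pathway transcription factor, was at 425, 412 and 415 CPM against 300, 293 and 294 CPM. Atp4a, the proton pump of parietal cells, was at 1.62 to 2.1 CPM in the knockout and 2.1 to 3.25 CPM in Mist1- libraries. The 9 parietal genes summed to 583 to 585 CPM and 530 to 533 CPM, most of it Car2, a carbonic anhydrase, and Slc9a4, a sodium-proton exchanger. Of the 5 tested, Slc9a4 was called higher and Clic6 lower. Of the 10 stem and isthmus genes, 4 were called higher and 2 lower. Lgr5, the Wnt-dependent stem cell receptor, was lower in the knockout, at 47.5, 46.9 and 43.1 CPM against 62.4, 65.1 and 60.8 CPM, whereas Axin2, a Wnt target, was higher, at 11.6, 13.9 and 14.7 CPM against 6.8, 6.46 and 9.41 CPM. Differences of opposite sign therefore occurred within the Wnt genes.

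Transcription factors of regional identity differed in both directions, with 3 of 16 called higher and 5 lower, beside 10.2% and 10.9% of all genes. Pdx1, which marks the antrum and duodenum, was at 17.1, 20.5 and 17.9 CPM in the knockout and 6.74, 4.99 and 5.86 CPM in Mist1- organoids, and averaged 38.5 CPM (SD 1.75) in Mist1+ organoids. Foxa2, an endodermal forkhead factor, had 5.81, 4.61 and 5.55 CPM against 16, 13 and 13.5 CPM, a difference of -1.41. Pitx1, a homeobox factor, was singled out after its values were seen. It had 26, 27.4 and 28.3 CPM in the knockout and 38.8, 41.9 and 38.3 CPM in Mist1- organoids, and at most 0.137 CPM in Mist1+ organoids. The difference of -0.54 between knockout and Mist1- was called (edgeR adjusted p = 0.000548). Knockout and Mist1- cultures thus shared Pitx1 transcript, which the wild-type Mist1+ culture had at or near 0. Shh, the hedgehog ligand, went the other way, with 0 counts in Mist1- libraries, 0.0604 to 0.472 CPM in the knockout and 3.8 to 4.87 CPM in Mist1+ libraries.

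The integrated stress response list was lower in the knockout as a whole. Of 18 tested members 16 were called lower and 0 higher, with a median of -0.63, and no alternative moved the 16 by more than 1.5 times. Trib3, a pseudokinase induced by ATF4, had 2.71, 2.99 and 2.72 CPM in the knockout and 15.1, 18.4 and 16.7 CPM in Mist1- libraries (difference -2.57, SE 0.16, edgeR adjusted p = 1.06e-10). Chac1, which degrades glutathione and is also used as a ferroptosis marker, had 2.77, 3.3 and 3.74 CPM against 15.1, 16.4 and 15.5 CPM (difference -2.26, SE 0.131). Aldh1l2, a mitochondrial folate enzyme, had 4.04, 5.29 and 5.13 CPM against 34, 35.1 and 34.3 CPM (difference -2.84, SE 0.134). No library of one culture reached the range of the other in these 3 genes.

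The transcription factors of the response had smaller differences than these targets. Atf4 had 251, 256 and 266 CPM in the knockout and 311, 303 and 314 CPM in Mist1- libraries, a difference of -0.26. Ddit3, which encodes CHOP, differed by -0.91 and Atf3 by -0.57. Enzymes of serine, asparagine and one-carbon supply were also lower: Asns, asparagine synthetase, had 154, 157 and 155 CPM against 219, 229 and 227 CPM (difference -0.54). Psph differed by -0.72, Mthfd2 by -0.47 and Psat1 by -0.24, and the amino acid carrier Slc7a5 by -0.64. Phgdh (-0.20) and Cebpb (-0.02) were not called. Sesn2 (-0.24) was called, but lost its call in several alternatives. Mist1+ organoids were low in most of these genes too. Against the same Mist1- libraries, 14 of the 18 were called lower there and 2 higher. Ddit4, a brake on mTORC1, was among the exceptions, with 35 to 37.4 CPM in the knockout, 68.6 to 70.9 CPM in Mist1- libraries and a mean of 99.9 CPM (SD 4.43) in Mist1+ organoids.

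Promoters of 4 members with large or early roles in the response are given because they hold the letters TGATGNAA, the pattern of the composite C/EBP-ATF element through which ATF4 acts. They come from RefSeq, build GRCm38.p6, each 300 bases running from 250 before the transcript start to 50 after it, 5' to 3' on the gene's strand, with a match on either strand in capitals. Chac1 is at chr2:119350992-119351291 (plus strand), Trib3 at chr2:152344011-152344310 (minus), Atf3 at chr1:191183284-191183583 (minus) and Asns at chr6:7693160-7693459 (minus).
Chac1: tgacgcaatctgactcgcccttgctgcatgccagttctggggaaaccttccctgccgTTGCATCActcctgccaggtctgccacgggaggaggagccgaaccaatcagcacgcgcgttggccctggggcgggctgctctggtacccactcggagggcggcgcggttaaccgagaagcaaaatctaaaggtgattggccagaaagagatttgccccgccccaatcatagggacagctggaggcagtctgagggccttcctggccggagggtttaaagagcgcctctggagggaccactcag
Trib3: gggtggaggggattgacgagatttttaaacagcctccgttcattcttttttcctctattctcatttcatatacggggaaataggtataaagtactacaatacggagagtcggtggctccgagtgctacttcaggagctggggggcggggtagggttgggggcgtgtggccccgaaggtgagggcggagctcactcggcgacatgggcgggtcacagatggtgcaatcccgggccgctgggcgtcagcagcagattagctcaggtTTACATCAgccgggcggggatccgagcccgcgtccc
Atf3: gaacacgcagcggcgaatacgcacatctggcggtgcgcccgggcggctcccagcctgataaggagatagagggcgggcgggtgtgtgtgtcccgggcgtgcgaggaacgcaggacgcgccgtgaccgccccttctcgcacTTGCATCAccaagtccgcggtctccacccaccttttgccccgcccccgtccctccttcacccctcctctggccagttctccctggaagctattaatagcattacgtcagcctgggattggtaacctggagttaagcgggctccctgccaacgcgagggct
Asns: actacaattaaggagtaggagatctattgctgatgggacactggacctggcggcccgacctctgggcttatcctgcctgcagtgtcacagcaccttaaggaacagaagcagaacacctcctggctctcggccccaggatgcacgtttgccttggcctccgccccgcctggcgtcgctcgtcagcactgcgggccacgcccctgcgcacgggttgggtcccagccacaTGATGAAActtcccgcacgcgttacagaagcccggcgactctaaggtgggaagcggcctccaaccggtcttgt
A match was found in any promoter of 6 of the 15 list genes with an entry, the 4 above with Nupr1 and Vldlr. Of all 32851 promoters, 3.97% held a match. A gene can have several promoters, so the share of genes and the share of promoters are unlike measures. A match is a run of letters and not a shown binding site.

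The hypoxia and glycolysis list was lower in the knockout nearly throughout. Of 18 members 17 were called lower and 0 higher, with a median of -0.45, and no alternative moved the 17 by more than 1.5 times. Vegfa lies on chromosome 17, and without it the count was 16 of 17. Ndrg1, a hypoxia-induced gene, had 145, 137 and 140 CPM in the knockout and 335, 336 and 340 CPM in Mist1- libraries (difference -1.26, SE 0.0539, edgeR adjusted p = 2.38e-13). Egln3, an oxygen-sensing prolyl hydroxylase, had 199, 201 and 207 CPM against 368, 374 and 373 CPM (difference -0.88, SE 0.052). Car9, a carbonic anhydrase of hypoxic cells, had 284, 282 and 288 CPM against 402, 410 and 399 CPM (difference -0.50, SE 0.0506). The libraries were separate in each. Vegfa, the angiogenic factor, had 114, 118 and 117 CPM against 270, 281 and 284 CPM, a difference of -1.26. Glycolytic enzymes differed less: Hk2 by -0.52, Aldoa by -0.42, Pfkl by -0.41, Eno1 by -0.40 and Pgk1 by -0.32. Ldha (-0.10) was not called. Mist1+ organoids were lower than Mist1- organoids in 17 of the 18 and higher in 1, Ankrd37. Between knockout and Mist1+ organoids, 12 were called higher in the knockout and 2 lower, so for most of the list the knockout had a level between the other cultures. Culture oxygen and density are not in the labels, and their part was not tested.

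The promoters of Car9 (chr4:43506776-43507075, plus strand) and Egln3 (chr12:54203825-54204124, minus strand) are shown because each holds ACGTG, a core pattern of the HIF response element, in capitals on either strand.
Car9: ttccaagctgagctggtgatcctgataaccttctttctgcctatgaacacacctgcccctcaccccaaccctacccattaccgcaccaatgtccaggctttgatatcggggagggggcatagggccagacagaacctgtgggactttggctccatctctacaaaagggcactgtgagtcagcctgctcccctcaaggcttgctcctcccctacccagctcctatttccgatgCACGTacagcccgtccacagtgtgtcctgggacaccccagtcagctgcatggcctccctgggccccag
Egln3: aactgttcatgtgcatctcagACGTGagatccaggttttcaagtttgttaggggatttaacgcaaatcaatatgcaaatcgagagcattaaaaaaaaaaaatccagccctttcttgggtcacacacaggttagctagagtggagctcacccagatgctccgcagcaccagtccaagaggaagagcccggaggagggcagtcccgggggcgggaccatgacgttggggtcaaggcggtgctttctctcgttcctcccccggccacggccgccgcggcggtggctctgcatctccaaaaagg
The same 5 letters were found in any promoter of 14 of the 17 list genes with an entry. They were found in 19.6% of all promoters, so this short pattern is common. Here too, a share of genes and a share of promoters are unlike measures.

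**Figure D3:**
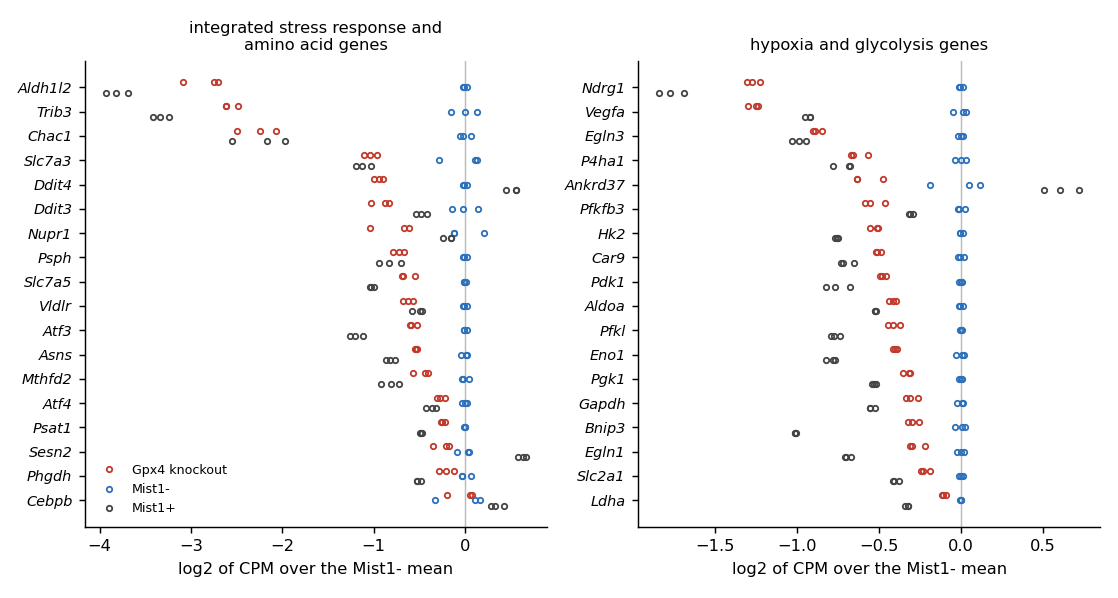
CPM of each library over the mean of the 3 Mist1- libraries, as log2, for the 18 integrated stress response genes (left) and the 18 hypoxia and glycolysis genes (right), knockout red, Mist1- blue and Mist1+ grey. Red circles lie left of the blue ones for every gene except Cebpb, where they overlap, and grey ones lie further left for many.

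Genes tied to GPX4's own function did not move one way. Of 20 ferroptosis defence genes, 4 were called higher and 4 lower, beside 10.2% and 10.9% of all genes. Slc7a11, the cystine carrier that feeds glutathione synthesis, was lower in the knockout, at 484, 468 and 481 CPM against 860, 854 and 846 CPM (difference -0.84, SE 0.156). Its partner Slc3a2 had 136, 136 and 139 CPM against 219, 218 and 216 CPM, and the factor Nfe2l2 (NRF2) 537, 539 and 547 CPM against 718, 722 and 721 CPM. All 3 were lower in each knockout library. Mboat2, a lysophospholipid acyltransferase reported to protect cells lacking GPX4, was higher, at 14.2, 15.9 and 14.4 CPM against 2.6, 3.17 and 2.9 CPM (difference 2.36, SE 0.114). Gch1, the first enzyme of tetrahydrobiopterin synthesis, differed by 0.65 and Acsl3, which activates monounsaturated fatty acids, by 0.44. Aifm2, which encodes FSP1, had 6.58 to 7.07 CPM against 7.87 to 9.29 CPM and was not called. Without Mist1+ passage 15 in the fit, 6 were called higher and 8 lower, beside 19.5% and 20.3% of all genes.

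NRF2 target genes were more often lower in the knockout, 9 of 22 against 1 higher, with a median of -0.17. Gstm1, Gstp1, Nqo1, Cbr1 and Srxn1, all of detoxification, were among the 9, with differences from -0.54 to -0.30. Me1, malic enzyme, was the 1 higher. Without Mist1+ passage 15 these counts were 15 and 5, on the same wider background. Glutathione genes were split, 5 higher and 6 lower of 22. Gsta3 was on one side (476 to 480 CPM against 237 to 243 CPM) and Gstm2 on the other (17.1 to 19.8 CPM against 48 to 51.2 CPM). Gst genes have close copies, and single members are uncertain for that reason. Among 20 selenoprotein genes 4 were called higher and 0 lower, beside 10.2% and 10.9% of all genes. Without Mist1+ passage 15, 10 were called higher and 3 lower, beside 19.5% and 20.3% of all genes. Gpx2, the epithelial glutathione peroxidase, had 639, 642 and 640 CPM against 377, 376 and 370 CPM, and Selenop, the selenium carrier, 234, 217 and 231 CPM against 132, 132 and 134 CPM. Mist1+ organoids averaged 1257 CPM (SD 23.1) of Gpx2 and 186 CPM (SD 6.37) of Selenop. In iron handling, Cp, the ferroxidase ceruloplasmin, had 177, 176 and 184 CPM against 65.6, 63 and 67.7 CPM, a difference of 1.45. Mist1+ organoids had 46.3 CPM (SD 1.93), so Cp was highest in the knockout.

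Several NF-kB and proliferation genes were higher in the knockout. Of 14 NF-kB genes, 9 were called higher, 2 lower and 3 neither, with a median of 0.30. Ccl20, a chemokine, had 126, 136 and 132 CPM against 38.3, 36 and 37 CPM, and Icam1, a leukocyte adhesion molecule, 84.4, 80.1 and 77.8 CPM against 37.2, 37.2 and 36.6 CPM. Cxcl2 differed by 0.96 and Il1a by 0.76. For Icam1 and Cxcl2 the Mist1+ level was near the Mist1- one, and for Ccl20 it was 110 CPM (SD 4.38). Immune cell markers summed to only 9.85 to 10.5 CPM in the knockout and 16.3 to 18.3 CPM in Mist1- libraries, mostly Cd68. Of 20 proliferation genes 12 were called higher, 0 lower and 8 neither, with a median of 0.20. Without Mist1+ passage 15 in the fit 19 were called higher, where 19.5% of all genes were, against 10.2% in the fit of all groups. Mcm5, a replication helicase subunit, had 117, 116 and 114 CPM against 87.4, 91.9 and 88.3 CPM. Mki67, at 712 to 750 CPM against 657 to 666 CPM, was not called. Unfolded protein response genes were called higher in 5 of 16, led by Xbp1, and lower in 0, beside 10.2% and 10.9% of all genes. But 11 were called higher without Mist1+ passage 15, where 19.5% of all genes were. Only 1 was called higher with any single Mist1- library or the third knockout library left out. The p53 targets gave 3 higher and 2 lower of 18, beside 10.2% and 10.9% of all genes. Off chromosome 17 these counts were 3 and 1 of 17. The nuclear oxidative phosphorylation genes gave 1 higher of 19.

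**Figure D4:**
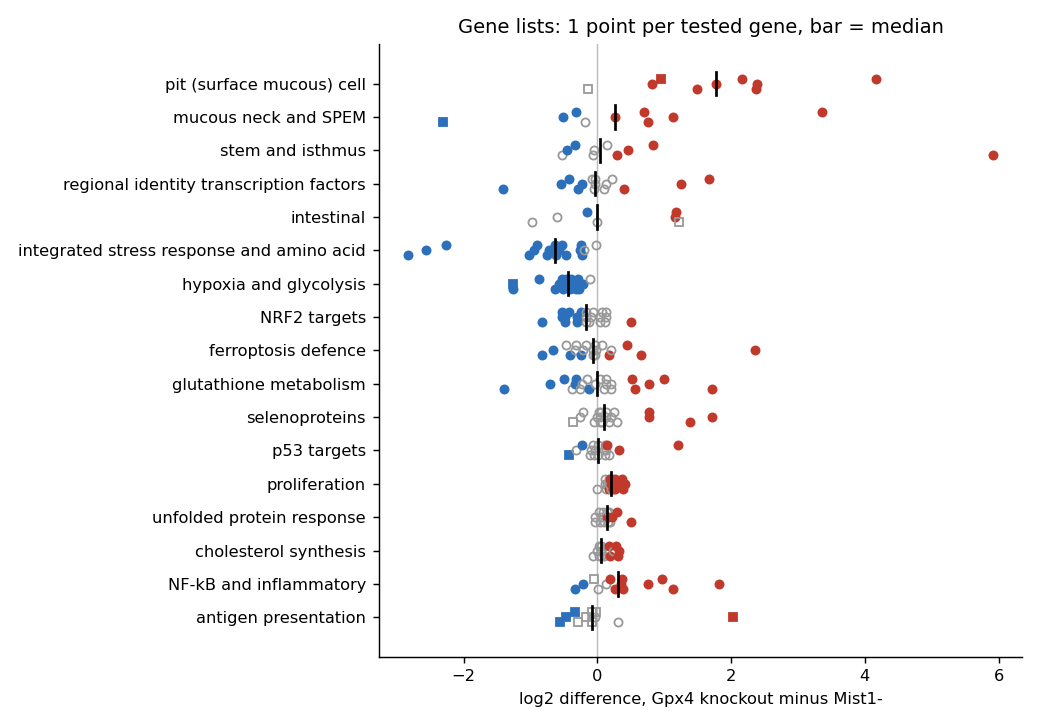
Log2 difference, knockout minus Mist1-, of each tested member of 17 gene lists, with black bars at list medians. Filled red and blue points were called higher and lower, open grey ones were not called, squares lie on chromosome 17, and a gene with 0 counts in a group is not drawn. The integrated stress response and hypoxia rows lie left of 0 and the pit cell row mostly to the right.

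Antigen presentation could not be read apart from chromosome 17, which holds 9 of its 11 tested genes. The 3 called lower, H2-K1, Tap2 and Psmb9, and the 1 called higher, Psmb8, all lie there. H2-K1, a class I heavy chain, had 356, 364 and 364 CPM against 454, 464 and 447 CPM, a difference of -0.33 at the upper quartile of that chromosome. B2m, its partner on chromosome 2, had 137 to 147 CPM against 138 to 149 CPM and was not called. H2 genes also share sequence.

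In a further set of genes, the knockout level lay closer to that of Mist1- than of Mist1+ organoids. They were chosen for that pattern and are given as a description. Nos2, the inducible nitric oxide synthase, had 49.5, 50.5 and 49.3 CPM in the knockout, 47.1, 46.4 and 44 CPM in Mist1- libraries and 4.94 to 5.64 CPM in Mist1+ libraries. Lcn2, an iron-siderophore binding protein of inflamed epithelium, had 555, 557 and 584 CPM, 691, 714 and 734 CPM, and 125 to 129 CPM. C3, the complement component, which lies on chromosome 17, had 231, 230 and 243 CPM, 275, 267 and 256 CPM, and 46.8 to 49.1 CPM. Lcn2 and C3 were called lower in the knockout than in Mist1- organoids (-0.34 and -0.18, edgeR adjusted p = 0.0225 and 0.0277), and Nos2 was not called. In all 3 the Mist1+ libraries lay far below both. Chst11, Tlcd4 and Prkch were likewise lowest in the Mist1+ libraries. On the other side, Sprr1a, a cornified envelope protein, had 29.6, 28.3 and 33.1 CPM, 30.6, 30.6 and 30.1 CPM, and 132 to 137 CPM. Cnfn, a cornified envelope gene too, had 7.3 to 8.86 CPM, 7.57 to 10.8 CPM and 46.9 to 51.1 CPM. Ripply3, Cyp2b10, Sytl1 and Lbh, the last on chromosome 17, also had low levels in both the knockout and Mist1- libraries.

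The knockout also held genes in which it stood apart from both, chosen in the same way. Cwc22, a splicing factor, had 63.3, 66 and 64.4 CPM in the knockout, 277, 273 and 290 CPM in Mist1- libraries and 238 to 254 CPM in Mist1+ libraries. Cwc22 is known for copies in mouse genomes, and this count is uncertain for that reason. Ripk3, the kinase of necroptosis, had 14.1, 12.9 and 12.1 CPM, 40.7, 35.7 and 38.6 CPM, and 33.4 to 34.8 CPM. Il36g, an epithelial cytokine, and Gask1b were also below both. Pxdn, a peroxidase of the extracellular matrix, had 13.3, 12.1 and 13.7 CPM, 1.77, 1.7 and 2.01 CPM, and 1.34 to 2.04 CPM. Lbp, which binds bacterial lipopolysaccharide, had 88.5, 86.9 and 86.6 CPM, 41.7, 40.7 and 38.5 CPM, and 32 to 37.6 CPM. Kcnj15, a potassium channel, and Glt1d1 were also above both.

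Later passages of the knockout line kept some of these levels and not others. Rpl29 averaged 24.6 CPM at passage 10 and 23.2 CPM at passage 15 in the knockout, and Cwc22 69.9 and 62.6 CPM, close to their passage 5 levels. Mist1+ organoids had 264 CPM of Cwc22 at passage 10 and 72.1 CPM at passage 15, so its low level was not limited to knockout libraries. In Mist1+ organoids at passage 15, Zfp987 and Xlr3a were also at 0 CPM and Il36g averaged 1.6 CPM. Rpl29, Zfp991 and Ripk3 still averaged 460, 8.13 and 44 CPM there (SD 173, 0.332 and 7.89), in the group with the widest spread. Pxdn averaged 14 and 19 CPM in the later knockout passages, and B3gnt7 27.2 and 37.5 CPM. Olfm4, which averaged 145 CPM at passage 5, stood at 28.6 CPM at passage 10, below the 35.3 CPM of Mist1+ organoids there, and at 0.704 CPM at passage 15. Muc5b averaged 136, 8.53 and 104 CPM over the 3 knockout passages and Ripk3 13.1, 21.4 and 5.28 CPM, so neither kept its passage 5 level. The series holds no Mist1- organoids at later passages.

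**Figure D5:**
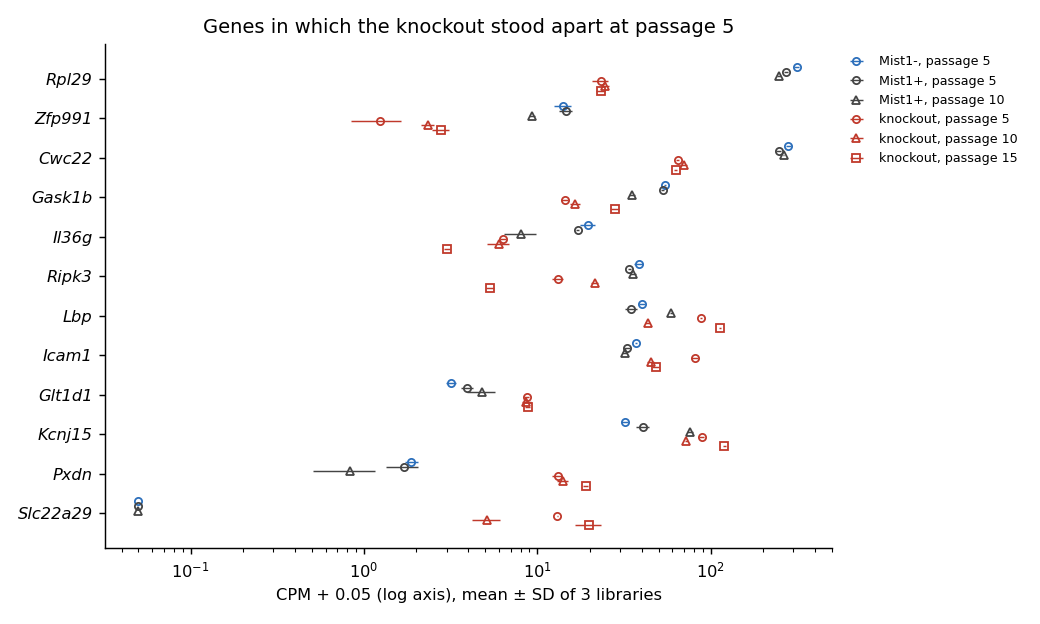
CPM plus 0.05 on a log axis, mean with SD of 3 libraries, for 12 genes in which the knockout stood apart at passage 5, by culture (colour) and passage (shape). Rpl29 and Cwc22 stay low in all 3 knockout passages, whereas Lbp and Icam1 vary between passages.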

How the data were processed

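The deposited table gives, per gene and library, the authors' read counts and FPKM values, with the exonic length. Per the submitters' processing notes, the tools were cutadapt 1.9.1, HISAT2 2.2.1 and HTSeq 0.6.1 with build GRCm38.p5. Only 1472 of 52073 shared gene identifiers had the same start and end as in a GRCm38 annotation (GENCODE M21), so table coordinates are not printed. The deposited FPKM values equal counts divided by exonic length and library total within 0.006 and were used only in alternatives.

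Genes passing filterByExpr (minimum count 10, minimum total 15) numbered 15115 and held 99.9% of counts. After TMM scaling, a model was fitted with 1 mean per group over 21 organoid libraries in edgeR 4.0.16 (R 4.3.3), and intervals came from limma 3.58.1 on log2 CPM with a prior count of 2. The 6 samples of sorted cells were not analysed here. A fold against a group at 0 counts used a floor of 3 counts over the group.

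On data simulated for knockout against Mist1- (14758 genes), 65.7% of 1.5-fold, 71.2% of 2-fold and 92.3% of 4-fold changes were called, and 9.04% of calls were false. All simulated libraries had the spread estimated over the 7 groups, and only 198 genes were changed. These rates therefore may not hold for the real comparison. Genes named were the 12 highest and 12 lowest of at least 5 CPM, up to 6 per direction in the 3-group patterns and the members of 38 gene lists. Members and lists were chosen with earlier results of these data known. Promoters are from RefSeq. Alternatives were other scalings, filters, groups in the fit, tools (DESeq2 1.42.0, limma), a replicate block and leaving out each library.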

Additional observations from a re-analysis of the deposited data

How the results depend on the processing

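Among the named and listed genes, no called difference changed sign in any alternative. The balance of calls did: 1539 were higher and 1643 lower, against 1805 and 1456 with library totals alone, 1778 and 1476 with limma on log2(FPKM + 1), 1797 and 1399 with limma on log2(FPKM + 0.1), and 1303 and 1267 without chromosome 17 genes. The genes called numbered 3182, and it was 6039 with only the 2 groups compared, 6035 with the 3 passage 5 groups and 5972 without Mist1+ passage 15. Genes of at least 2-fold numbered 721, and 312 with a mean FPKM of at least 1 and 203 with limma on log2(FPKM + 1), where low genes were removed or compressed. Genes with an interval inside 1.5-fold numbered 8997, and 14791 without a low-count filter. Leaving out 1 library gave 2540 to 2610 called genes, 686 to 718 of at least 2-fold and 8497 to 8531 inside 1.5-fold. DESeq2 called 3314 genes. With the replicate number as a block 3110 were called, but the numbers did not pair the libraries (correlations of deviations from -0.03 to 0.03). Leaving out chromosome 17, an alternative chosen after seeing the data, gave 2570. Of 209 named or listed genes called, 46 lost the call in some alternative, and 105 that were not called gained one. C3 and Lcn2 were among those that lost it.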

Other observations

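Chromosome 19 stood apart at a later passage of the knockout line. Set against the median of all 21 libraries, its genes lay at -0.05 in each passage 5 knockout library, at 0.21 to 0.22 at passage 10 and at 0.09 to 0.10 at passage 15. The Mist1- libraries lay at -0.07 to -0.06 and the Mist1+ libraries of passages 5 and 10 at -0.06 to -0.02. These are log2 values over genes of at least 5 CPM and enter no comparison above.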
